A study of Homo sapiens with 6 samples.

Results

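The 6 olfactory receptor gene clusters examined here span 7.85 Mb of the human genome, and the peak lists of 5-hydroxymethylcytosine (5hmC) and 5-methylcytosine (5mC) were read across them and across 1 Mb on either side. A peak region belonged to a cluster when its midpoint lay between fixed hg19 positions, so membership used position alone and no measured level. By this rule 534 of 593403 regions were members, namely 216 from the 5hmC list of high glucose, 210 from that of normal glucose, and 54 from either 5mC list. Cluster 1 was chr11:4350000-6250000, cluster 2 chr11:55000000-56600000, cluster 3 chr11:57750000-59300000, cluster 4 chr11:123600000-124500000, cluster 5 chr1:247600000-248900000 and cluster 6 chr14:20150000-20750000. The cells were A2058, an established human melanoma line, made to overexpress wild-type TET2, an enzyme that oxidises 5mC to 5hmC. They were kept in high glucose or in normal glucose for 7 days, and both groups carried the TET2 transgene, so the comparison between them is one of glucose and not of TET2. The hMeDIP-seq libraries report 5hmC and the MeDIP-seq libraries 5mC, each through an antibody that recognises its modified base and enriches the DNA fragments bearing it. Every mark was profiled in a single library at each glucose level, and the 2 input libraries of the series are not used here.

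Olfactory receptors are G-protein-coupled receptors that bind odorants, and their genes form the largest gene family of mammals, laid out in tandem clusters rich in pseudogenes. Each olfactory sensory neuron transcribes a single allele of a single receptor gene, while most receptor genes are packed into heterochromatin and silent in other cell types, although a few are transcribed elsewhere. Transcription was not measured here. 5mC lies mainly at CpG dinucleotides, and 5hmC arises from it by TET oxidation, so both antibodies are meant to enrich fragments that hold modified cytosine. Capture of other fragments was not measured here.

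The receptor genes themselves have promoters with few CpG dinucleotides, which the sequences below show beside promoters of neighbouring genes, rich and poor. In the RefSeq order of genes on GRCh38.p14, the runs OR52B4 to OR52W1, OR4A16 to OR9G4, OR9Q1 to OR4D9, OR6X1 to OR8A1, OR2B11 to OR14I1 and OR4Q3 to OR11H4 were taken, by gene order, for clusters 1 to 6 and hold 355 olfactory receptor genes, 200 coding and 155 not coding. They also hold 32 other coding genes, among them TRIM5 and TRIM22, whose products restrict retroviruses, GLYAT, a glycine acyltransferase, and CNTF, a neurotrophic factor, while the run of cluster 6 holds none. The 250 bases upstream of the gene start, from RefSeq on GRCh38.p14 and 5′ to 3′ on the gene's strand, are printed with each CG in capitals for the last receptor gene of clusters 3, 4 and 6 and the nearest coding neighbour beyond it. OR4D9, OR8A1 and OR11H4 encode odorant receptors, OSBP an oxysterol-binding protein, PANX3 a channel protein of the pannexin family and TTC5 a cofactor of the p53 response. The positions are chr11:59511289-59511538 (plus strand) for OR4D9, chr11:59615775-59616024 (minus) for OSBP, chr11:124569747-124569996 (plus) for OR8A1, chr11:124611178-124611427 (plus) for PANX3, chr14:20239036-20239285 (plus) for OR11H4 and chr14:20305952-20306201 (minus) for TTC5, all on GRCh38.p14 and not comparable with the hg19 positions of the peak regions.
OR4D9: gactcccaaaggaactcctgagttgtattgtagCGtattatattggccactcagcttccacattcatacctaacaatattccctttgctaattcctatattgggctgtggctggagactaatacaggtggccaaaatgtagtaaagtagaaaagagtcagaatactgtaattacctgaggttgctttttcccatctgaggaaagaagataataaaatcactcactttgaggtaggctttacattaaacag
OSBP: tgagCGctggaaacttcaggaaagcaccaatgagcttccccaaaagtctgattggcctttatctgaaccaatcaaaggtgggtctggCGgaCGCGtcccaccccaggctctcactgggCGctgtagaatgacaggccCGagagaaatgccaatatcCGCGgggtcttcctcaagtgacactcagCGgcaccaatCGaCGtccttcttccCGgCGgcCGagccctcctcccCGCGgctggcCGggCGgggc
OR8A1: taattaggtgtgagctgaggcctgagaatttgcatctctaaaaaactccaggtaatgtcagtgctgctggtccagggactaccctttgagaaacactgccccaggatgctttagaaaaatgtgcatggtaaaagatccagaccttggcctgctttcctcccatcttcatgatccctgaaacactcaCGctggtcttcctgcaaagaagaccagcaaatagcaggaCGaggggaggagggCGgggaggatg
PANX3: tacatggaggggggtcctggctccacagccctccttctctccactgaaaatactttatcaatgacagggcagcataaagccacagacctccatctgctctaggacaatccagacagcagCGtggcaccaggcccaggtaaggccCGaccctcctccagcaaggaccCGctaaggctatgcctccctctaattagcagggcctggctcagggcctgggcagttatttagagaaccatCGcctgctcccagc
OR11H4: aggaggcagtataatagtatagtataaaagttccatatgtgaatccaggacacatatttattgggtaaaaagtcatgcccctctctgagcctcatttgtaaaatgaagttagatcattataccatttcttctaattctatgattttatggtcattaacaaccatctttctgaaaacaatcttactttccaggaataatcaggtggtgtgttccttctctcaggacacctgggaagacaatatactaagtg
TTC5: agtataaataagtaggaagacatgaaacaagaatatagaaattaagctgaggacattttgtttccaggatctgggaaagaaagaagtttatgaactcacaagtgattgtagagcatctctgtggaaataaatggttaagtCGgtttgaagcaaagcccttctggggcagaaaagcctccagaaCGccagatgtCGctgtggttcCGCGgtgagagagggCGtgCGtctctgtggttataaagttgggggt
The receptor promoters hold 1 CG in OR4D9, 3 in OR8A1 and 0 in OR11H4, against 18 in OSBP, 4 in PANX3 and 7 in TTC5. These examples were chosen after the counts were seen. Most nearest neighbours also hold few CG: of the 11 with a sequence, 9 held between 0 and 7, and OSBP and ZNF202 held 18 and 19, while the 11 first or last receptor genes of the runs with a sequence held between 0 and 4.

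Over all promoters that could be matched, counted in 300 bases around the gene start, receptor genes had a median of 1 CG. This was counted in 160 of the 200 coding receptor genes, because the sequence table has no entry for the other 40. Of the 32 other coding genes of the runs, the 23 with a sequence had a median of 6. Among the 10 nearest coding genes on each side of a run, the 81 with a sequence had 18. The 27305 promoters of the whole table had 14. By run, in the order of clusters 1 to 6, the neighbours' medians were 5.5, 4, 19, 22, 22 and 9, against 1, 1, 1, 2, 2 and 1 for receptor genes, so the contrast was smaller beside clusters 1 and 2. Of the receptor promoters, 20.6% held no CG, against 4.94% of the neighbours and 4.16% of all promoters, and 1.25% held 10 or more, against 63.0% and 56.0%. CG reads the same on both strands and cannot overlap itself. Median GC content was 37.2% in receptor promoters, 59.7% in neighbours and 58.3% in the whole table. The part of CG content in the peak region numbers given below was not tested, since neither genome sequence nor gene positions on hg19 were used here.

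**Figure D1:**
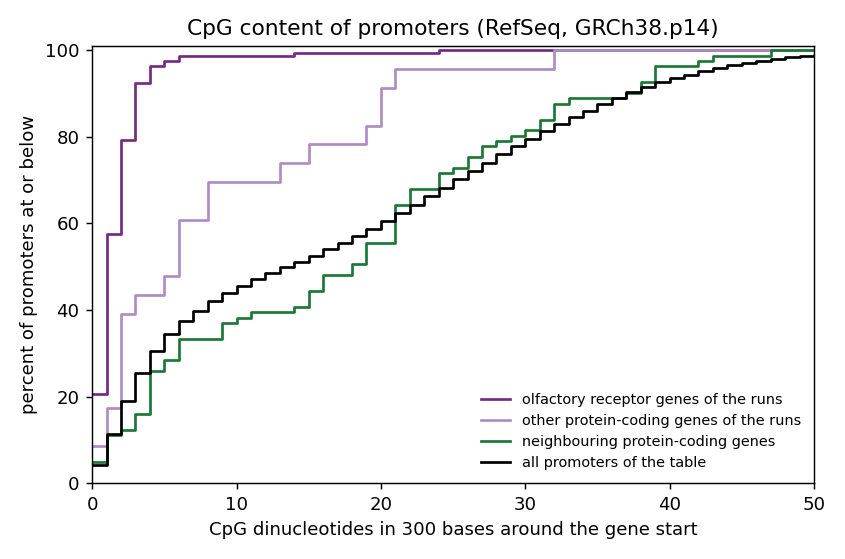
Cumulative percent of promoters (vertical) by the number of CpG dinucleotides in 300 bases around the gene start (horizontal), for RefSeq genes on GRCh38.p14. The line of the 160 receptor promoters starts at 20.6% with no CpG. It lies left of the lines of the 23 other coding genes of the runs with a sequence, the 81 neighbours with a sequence and all 27305 promoters. The medians of these other lines, in that order, are 6, 18 and 14.

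Because each list came from 1 library, no value has a replicate check and no p-value is given. Intervals are exact 95% intervals that cover counting error only, because regions do not replicate a group and reads, for which no molecular identifiers are stated, may share a molecule. Depth is not stated in the sources used here and was inferred from the fold and p columns, as 28.0 M reads for 5hmC in high glucose and 27.5 M in normal glucose, with 6.14 M and 5.11 M for 5mC. The depth behind 5mC was thus lower, and numbers of regions are set against flanks and genome within a list.

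Both marks were sparse in the clusters. The high-glucose 5hmC list held 27.5 regions per Mb in the clusters, against 79.5 in the flanks and 64.9 over chromosomes 1 to 22 and X, and the normal-glucose 5hmC list held 26.8, against 89.8 and 71.3. The high-glucose 5mC list held 6.88 per Mb in the clusters, against 47.0 and 34.0, and the normal-glucose 5mC list held 6.88, against 39.5 and 31.2. The density in the clusters was 0.346 times that of the flanks for high-glucose 5hmC (95% interval 0.297 to 0.402) and 0.298 times for normal-glucose 5hmC (0.255 to 0.346). For 5mC it was 0.146 times in high glucose (0.108 to 0.194) and 0.174 times in normal glucose (0.129 to 0.232). The intervals of the 5mC ratios lay below those of the 5hmC ratios at both glucose levels.

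By covered length the clusters were emptier still. 5hmC regions covered 1.39% of the clusters in high and 1.20% in normal glucose, and 5mC regions 0.359% and 0.367%. In the flanks the cover was 5.13% and 5.85% for 5hmC and 3.01% and 2.60% for 5mC. Such levels are low but not unique in the genome. Of the 2875 windows of 1 Mb that held a region of any list, 21.2% had fewer high-glucose and 20.5% fewer normal-glucose 5hmC regions per Mb than the clusters, and 23.2% and 26.3% had fewer 5mC regions. The median window held 55 and 58 5hmC and 18 and 16 5mC regions.

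**Figure D2:**
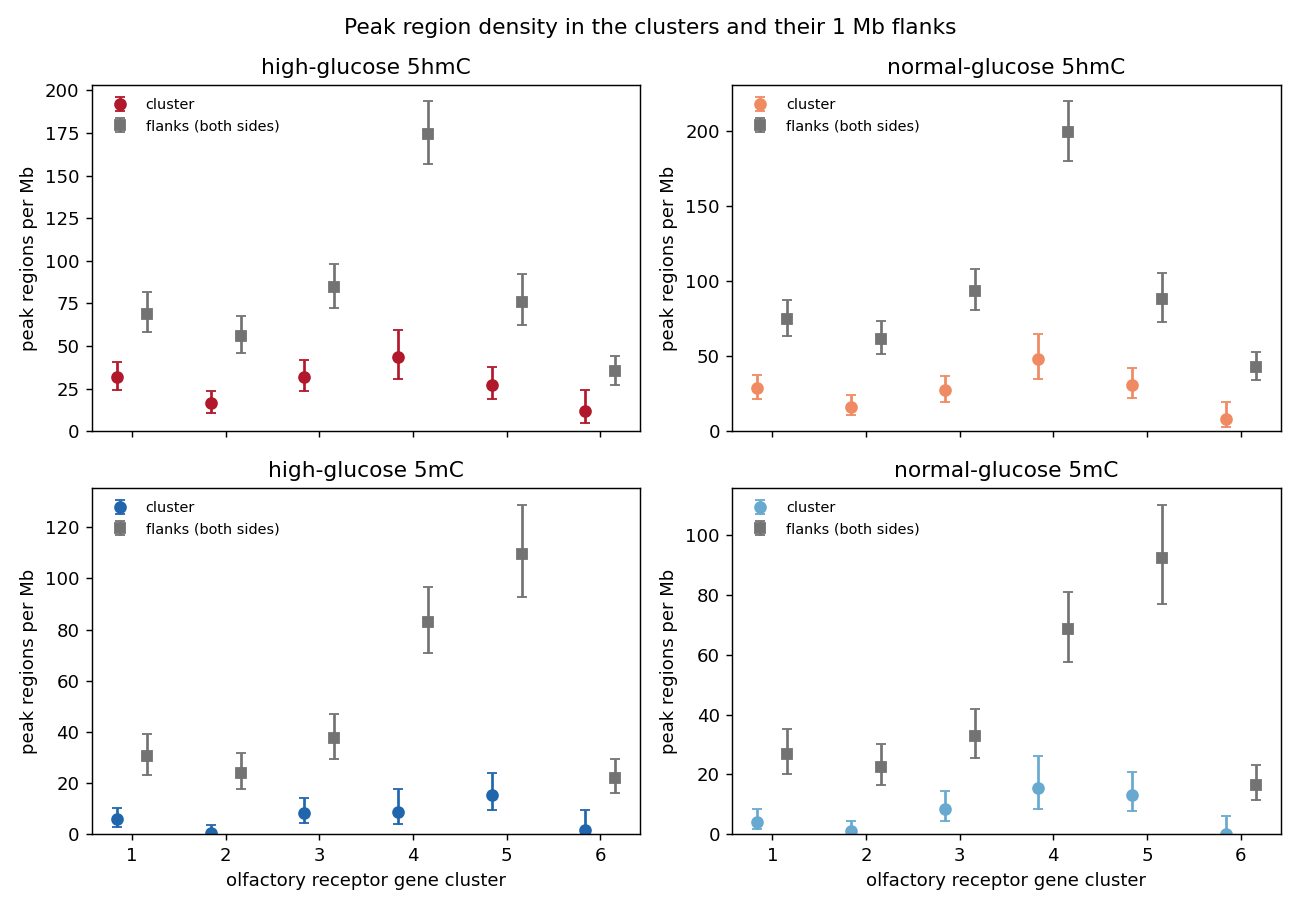
Peak regions per Mb (vertical) in each cluster (coloured circles) and in its flanks (grey squares), 1 panel per list, with exact 95% Poisson intervals. Circles lie below squares in all 24 pairs, and the flanks of cluster 4 reach 175 and 199 5hmC regions per Mb in high and normal glucose. The flank length of cluster 2 includes its left 1 Mb, which held 0 regions in every list.

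The clusters differed among themselves. Cluster 1, the longest, held 60 and 54 5hmC regions in high and normal glucose, which is 31.6 (24.1 to 40.6) and 28.4 (21.4 to 37.1) per Mb, with 11 and 8 5mC regions. Its flanks had 69.0 and 74.5 5hmC regions per Mb. All 11 high-glucose 5mC regions lay in the right part of the cluster, from position 5315613 on, and 7 of the 8 normal-glucose regions did too. The other was at chr11:4621452-4621977, and no 5mC region of either list followed it for 694 kb.

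Cluster 2 stood out for the near absence of 5mC. It had 1 region in high glucose, chr11:55641702-55642025, with 7 fragments, and 2 in normal glucose, an overlapping one of 7 fragments and chr11:55973577-55973901, also of 7. That is 0.625 per Mb (0.0158 to 3.48) in high and 1.25 (0.151 to 4.52) in normal glucose, against 48.0 and 45.0 in its right flank. 5hmC was there all the same, with 26 regions in each list, or 16.3 per Mb. The left flank of this cluster, on the side of the centromere of chromosome 11, held 0 regions in all 4 lists. Over both flanks, with this empty 1 Mb in the length, 5mC density was 24.0 in high and 22.5 in normal glucose. For 5hmC it was 56.0 and 61.5 per Mb over both flanks, against 112 and 123 in the right flank alone. The plot of regions per Mb by cluster and the flank totals also count the empty 1 Mb. Whether regions could be listed there was not tested.

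Cluster 3 had 49 and 42 5hmC regions in high and normal glucose and 13 5mC regions in each list. Of its 13 high-glucose 5mC regions, 11 had a normal-glucose partner, and so did 11 the other way. Its left flank overlaps the right flank of cluster 2 and was rich, with 115 and 128 5hmC regions in high and normal glucose, against 54 and 59 in its right flank.

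Cluster 4 had the highest density of 5hmC regions, with 43.3 per Mb (39 regions) in high and 47.8 (43 regions) in normal glucose. Its flanks were also the densest, at 175 and 199 per Mb, so its ratio to the flanks was 0.248 (0.174 to 0.346) in high and 0.240 (0.171 to 0.329) in normal glucose. It held 8 high-glucose and 14 normal-glucose 5mC regions, and the interval of their ratio of 0.571, from 0.208 to 1.46, includes 1. The expected fragment count behind its regions, read back from fold and p, was 1.76 and 1.78 times the genome background for 5hmC at the median in the cluster, and 1.93 and 1.94 times in its flanks, so regions here needed more fragments for the same p than in cluster 1, where the median was at the background.

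Cluster 5 held 20 5mC regions in high and 17 in normal glucose, more than any other cluster, together with 35 and 40 5hmC regions. Per Mb that is 15.4 and 13.1 5mC regions, against 8.89 in high and 15.6 in normal glucose in cluster 4, so by density cluster 4 came first in normal glucose. The left flank of cluster 5 held more 5mC than 5hmC regions, 136 5mC and 81 5hmC in high glucose and 117 5mC and 92 5hmC in normal glucose. In its right flank, with 11 5mC and 21 5hmC regions in high glucose and 7 5mC and 26 5hmC in normal glucose, as in the cluster itself, 5hmC regions outnumbered 5mC regions. The right flank reached only 0.340 Mb to the outermost listed position of the chromosome. In the cluster itself the median expected count for 5hmC was 1.65 times the background in high and 1.59 times in normal glucose. In the right flank it was 1.69 and 1.89 times.

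Cluster 6, the shortest, was nearly bare. It held 7 5hmC regions in high glucose and 5 in normal glucose, and 1 5mC region in high glucose, chr14:20704113-20704436, with 7 fragments. The normal-glucose 5mC list had 0 regions in its 0.600 Mb, a count that allows up to 3. All 5 normal-glucose 5hmC regions overlapped a high-glucose one. Its left flank, with 2 and 1 5hmC and 3 and 3 5mC regions in high and normal glucose, was also nearly bare, while the right flank held 68 and 84 5hmC and 41 and 30 5mC regions.

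**Figure D3:**
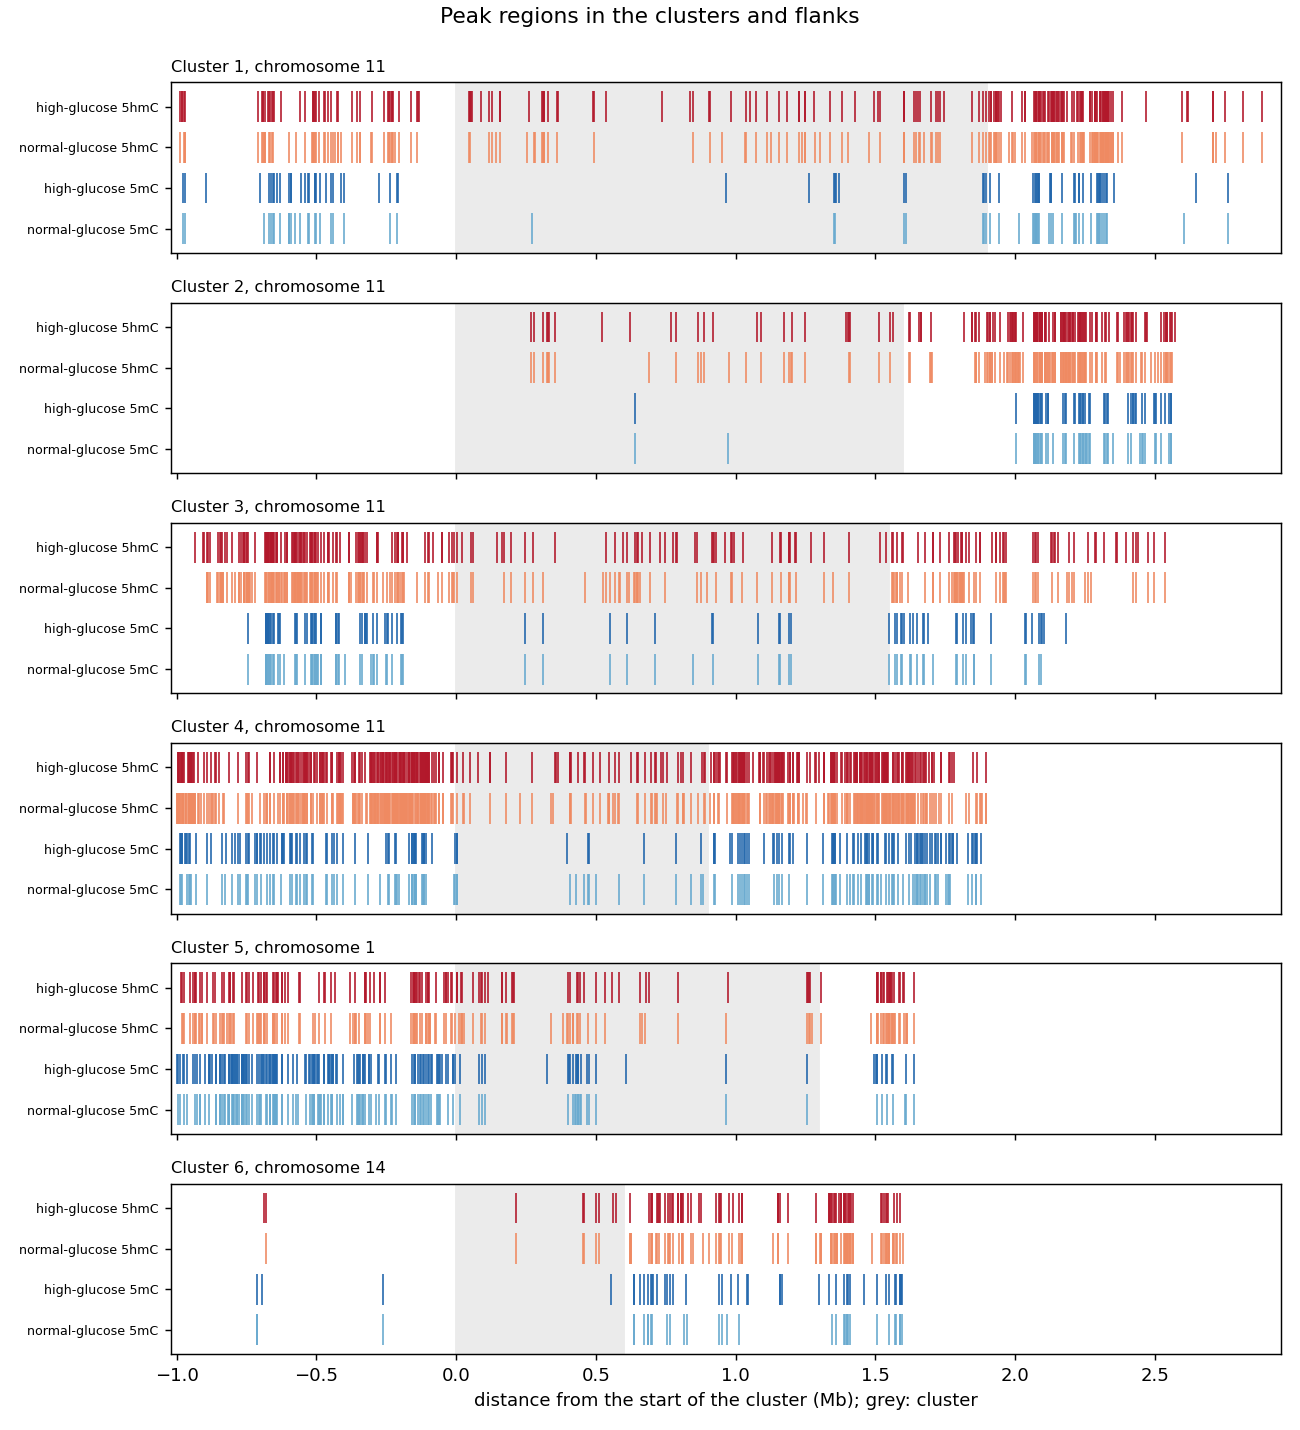
Midpoints of peak regions (ticks) by distance from the start of each cluster in Mb, in the cluster (grey) and its flanks, with 1 row of ticks per list. Cluster 2 shows 1 and 2 ticks of 5mC in high and normal glucose, and the left flanks of clusters 2 and 6 are empty or nearly so.

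Mean region numbers were lower just inside the cluster edges than just outside, and lower again in the next 100 kb. The 100 kb just inside a cluster edge held on average 3.75 high-glucose and 3.00 normal-glucose 5hmC regions, against 5.92 and 6.42 in the 100 kb just outside. From 200 to 300 kb inside, the means were 2.00 and 2.17. For 5mC the means just inside were 1.0 and 1.08, against 3.00 and 2.33 just outside, and from 100 to 200 kb inside they were 0.167 in both lists, which is 2 regions over 12 edges, and from 200 to 300 kb they were 0.333 and 0.417. From 100 to 200 kb outside, the 5mC means were 4.50 and 4.08. Single edges did not all follow the mean. For high-glucose 5hmC the inner 100 kb held fewer regions than the outer at 7 of 12 edges, more at 2 and as many at 3, and for normal-glucose 5hmC fewer at 8 and more at 2. The edges with more inside were the left edge of cluster 1, with 6 and 2 inside and 0 outside, and the right edge of cluster 5, with 4 inside and 1 outside in each list. For 5mC the inner 100 kb held fewer regions at 4 edges in high and 3 in normal glucose and more at 2 in each list, and 5 of 12 edges had no region on either side.

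**Figure D4:**
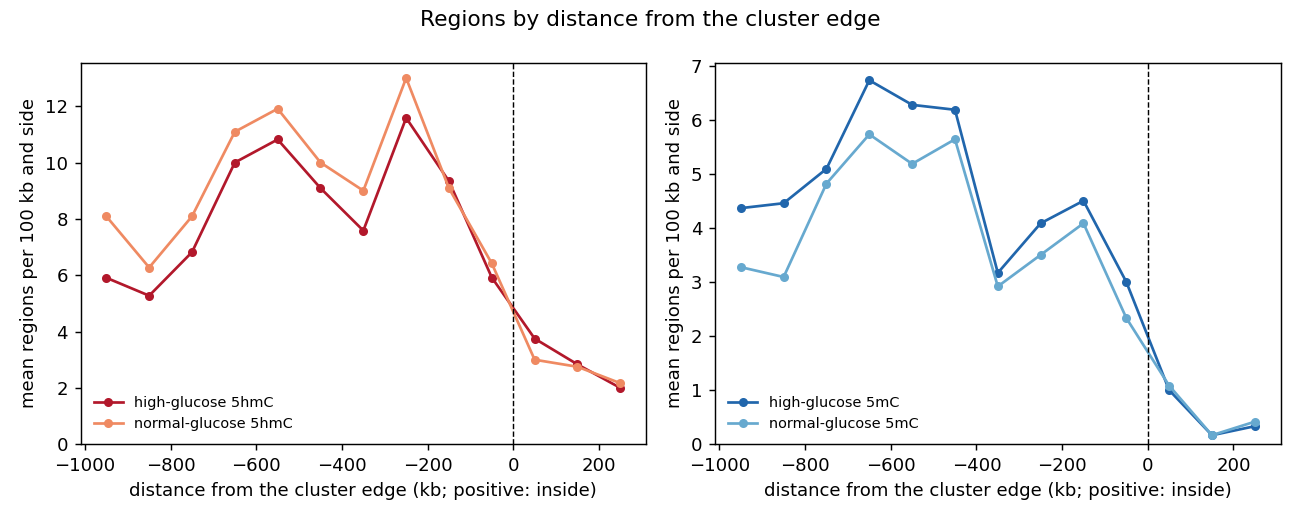
Mean number of regions per 100 kb and edge (vertical) by distance from the cluster edge in kb (horizontal; positive is inside), for 5hmC (left) and 5mC (right). 5mC is at 0.167 from 100 to 200 kb inside, and 5hmC to 2.00 and 2.17 from 200 to 300 kb inside, in high and normal glucose.

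Most stretches of the clusters held no 5mC region. Of 157 windows of 50 kb, 126 (80.3%, 73.2 to 86.2) held no 5mC region in high glucose and also 126 in normal glucose, against 52.9% and 55.3% of windows over the genome. For 5hmC 56 windows (35.7%, 28.2 to 43.7) were empty in high and 62 (39.5%, 31.8 to 47.6) in normal glucose, against 22.9% of windows over the genome in either list. In the flanks the empty shares in high and normal glucose were 40.5% and 45.2% for 5mC and 29.0% and 28.6% for 5hmC. The high-glucose 5hmC share of the flanks lies inside the interval of the clusters. Windows with no region of any list are counted in these shares. They made up 28.0% in the clusters and 23.8% in the flanks, and over the genome 51201 of 60694 windows held a region of any list. Of the 56 and 62 cluster windows without 5hmC, 44 were empty in all 4 lists. The part of such windows in the contrasts with the genome and the flanks was not tested.

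The window chr1:248000000-248049999 in cluster 5 was the fullest for 5mC. It held 9 of the 54 high-glucose 5mC regions (16.7%) and 8 of the 54 normal-glucose ones (14.8%), of which 6 in each list had a partner at the other glucose level. Their −log10 p ran between 4.65 and 29.4 in high and between 3.98 and 31.8 in normal glucose. The same window held 5 high-glucose and 8 normal-glucose 5hmC regions. At the other end were long empty stretches. No region of any list lay at chr1:248574512-248854804, a stretch of 280 kb in cluster 5, or at chr14:20363348-20604540, a stretch of 241 kb that is 40.2% of cluster 6. The longest such stretch was 201 kb in cluster 1, 269 kb in cluster 2, 111 kb in cluster 3 and 68.3 kb in cluster 4.

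The balance between the marks differed from the surroundings. In high glucose the clusters had 4.00 5hmC regions for each 5mC region (2.96 to 5.49), against 1.69 (1.51 to 1.89) in the flanks and 1.91 over the genome. In normal glucose the ratio was 3.89 (2.87 to 5.35), against 2.28 (2.02 to 2.56) and 2.29. The intervals of clusters and flanks did not overlap at either glucose level. These ratios use the same region counts as the densities above and restate that comparison.

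A small share of the 5hmC regions in the clusters also carried 5mC. Of the high-glucose 5hmC regions in the clusters 14 of 216 overlapped a high-glucose 5mC region by at least 1 bp, or 6.48% (3.59 to 10.6), against 21.9% in the flanks and 17.6% over the genome. In normal glucose it was 17 of 210, or 8.10% (4.79 to 12.6), against 19.0% and 18%. Seen from 5mC, 14 of 54 high-glucose regions (25.9%, 15.0 to 39.7) overlapped 5hmC, against 35.9% in the flanks and 32.2% over the genome, and 17 of 54 normal-glucose regions (31.5%, 19.5 to 45.6), against 43.2% and 39.7%. The 5hmC intervals lie below the genome values, while the 5mC intervals include them, so for 5mC a difference was not detectable at this number of regions. Both shares count the same overlaps, so the 5hmC share also depends on how few 5mC regions the clusters hold. The part of that in the low 5hmC share was not tested. Of the 14 high-glucose 5hmC regions with 5mC, 8 lay in cluster 5 and 4 in cluster 3, and clusters 2, 4 and 6 had 0.

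**Figure D5:**
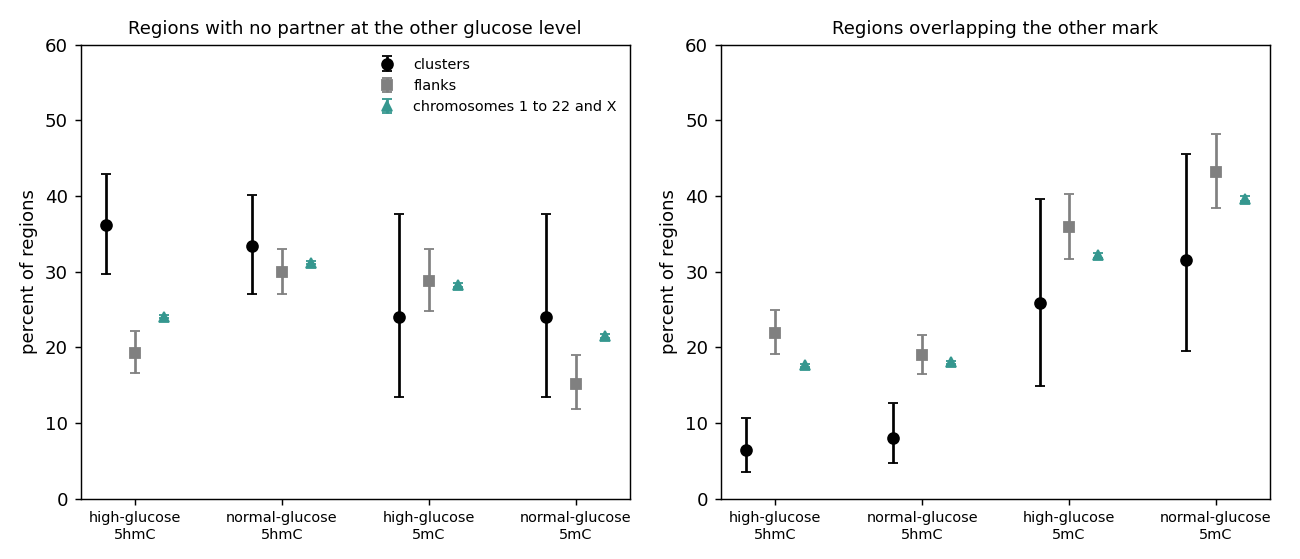
Percent of regions with no partner of the same mark at the other glucose level (left) and percent overlapping the other mark (right) for each list, in clusters (black), flanks (grey) and chromosomes 1 to 22 and X (green), with exact 95% binomial intervals. High-glucose 5hmC regions of the clusters stand at 36.1% with no partner, against 19.3% in the flanks and 24.1% over the genome.

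The clusters held nearly the same number of regions at both glucose levels. The ratio of high- to normal-glucose regions was 1.03 for 5hmC, with an interval from 0.847 to 1.25, and 1.0 for 5mC (0.673 to 1.49). In the flanks the ratios were 0.885 (0.806 to 0.973) for 5hmC and 1.19 (1.04 to 1.36) for 5mC, and over the genome 0.911 and 1.09, both inside the intervals of the clusters. Every single cluster had an interval that includes 1 for either mark. The expected count of the background was higher in the high-glucose lists, at 3.03 against 2.64 for 5hmC and 0.737 against 0.615 for 5mC. The part of that difference in the ratios was not tested at the threshold of the lists, where scaling to the lower background removed no member. Among regions whose −log10 p reached 10 the ratios were 1.27 for 5hmC and 0.917 for 5mC, and 1.101 and 0.750 once the background was matched.

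Which 5hmC regions were listed differed more than their number. Of the high-glucose 5hmC regions, 78 of 216 had no normal-glucose partner, or 36.1% (29.7 to 42.9), against 19.3% in the flanks and 24.1% over the genome. Of the normal-glucose 5hmC regions 70 of 210 had no partner, or 33.3% (27.0 to 40.1), against 29.9% and 31.2%. For 5mC 13 of 54 had none in each list, or 24.1% (13.5 to 37.6), against 28.3% of high-glucose and 21.5% of normal-glucose regions over the genome. Only the high-glucose 5hmC share had an interval clear of the genome value.

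Regions without a partner were weaker than those with one. Their median −log10 p was 7.64 for high-glucose and 6.51 for normal-glucose 5hmC, against 12.2 and 9.95 for regions with a partner. Members as a whole were also slightly weaker and narrower than the genome's regions of the same list, with a median −log10 p of 9.48 against 9.99 for high-glucose 5hmC, and a median width of 400.5 bp against 464 bp. Among the high-glucose 5hmC regions whose −log10 p reached 10, 19 of 100 members had no partner (11.8 to 28.1%), against 9.88% over the genome, and among those that reached 20 it was 1 of 27, against 0.776% over the genome. By cluster, the share of high-glucose 5hmC regions without a partner was between 28.6% in cluster 6 (2 of 7) and 44.9% in cluster 3 (22 of 49). These point values lay above the genome value in all 6 clusters, but single clusters hold few regions and no intervals were made for them.

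The strongest 5hmC region stood at the far end of cluster 5. Fold enrichment and −log10 p are the authors' values for a peak and rank it within its own list. At chr1:248865552-248866846 the high-glucose 5hmC list had 88 fragments (95% interval 70.6 to 108), enriched 14.6-fold over the expected count, with −log10 p at 75.4. The normal-glucose list had 72 fragments (56.3 to 90.7), enriched 9.35-fold, with −log10 p at 47.7, at chr1:248865509-248866883. It ranked 488 of 191314 and 1343 of 209999 in these lists, and the nearest 5mC region was 9904 and 9847 bp away.

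Other clusters each had a leading 5hmC region of their own. In cluster 1 it was chr11:6196559-6197109, with 52 fragments in high glucose, and chr11:6196495-6197096, with 41 in normal glucose. Cluster 3 was led by chr11:58284428-58285073 with 46 fragments in high glucose, and by the overlapping chr11:58284501-58285015 with 39 in normal glucose. Cluster 4 was led by chr11:123721791-123722390, with 63 fragments in high glucose, and chr11:123721914-123722462, with 54 in normal glucose. In these 3 clusters, and in clusters 5 and 6, both glucose levels thus put the same place first. Another region of cluster 4, chr11:124411114-124411503 with 51 fragments, was among the 5 strongest in normal glucose.

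Cluster 2 had a different leader in each list. In high glucose it was chr11:55351354-55353847, with 49 fragments, which overlaps the widest normal-glucose member, chr11:55351356-55353826, of 2471 bp and 44 fragments. In normal glucose it was chr11:55788029-55788499, with 39 fragments, which also had a high-glucose partner. The widest high-glucose member, chr11:55327001-55330117, of 3117 bp, had its nearest 5mC region at 311585 bp. Cluster 6 was led by chr14:20604541-20605347, with 26 fragments in high glucose, and chr14:20604614-20605186, with 21 in normal glucose.

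The strongest 5mC region lay in cluster 5 too, near its opposite end. At chr1:247681126-247682217 the high-glucose 5mC list had 80 fragments (63.4 to 99.6), enriched 43.7-fold, with −log10 p at 127, rank 1376 of 100220. At chr1:247681131-247682184 the normal-glucose list had 75 fragments (59.0 to 94.0), enriched 34.2-fold, with −log10 p at 105, rank 1475 of 91870. A weak 5hmC region, chr1:247681115-247681592 with 17 fragments, overlapped it in high glucose, while in normal glucose the nearest 5hmC region was 5193 bp away.

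The next 5mC regions were also held at both glucose levels. In cluster 3, chr11:58667752-58668345 had 29 fragments in high glucose and chr11:58667789-58668707 had 35 in normal glucose, with no overlapping 5hmC. Cluster 4 was led in high glucose by chr11:123602709-123603243, with 33 fragments, at 141 bp from a 5hmC region and close to the cluster's left edge. In normal glucose it was led by chr11:124070968-124072278, with 27 fragments, which at 1311 bp was also the widest member of its list.

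Overlapping regions of the 4 lists merged into 331 places in the clusters. At 124 of them (37.5%, 32.2 to 42.9) 5hmC was listed at both glucose levels with no 5mC, close to the 34.0% over the genome. Places with high-glucose 5hmC alone numbered 74 (22.4%, 18.0 to 27.2), against 10.2% in the flanks and 12.9% over the genome, and places with normal-glucose 5hmC alone 66 (19.9%, 15.8 to 24.7), against 17.9% in the flanks and 16.9% over the genome. Regions of all 4 lists were joined at 12 places (3.63%, 1.89 to 6.25), against 9.72% in the flanks and 7.41% over the genome. Regions join through an overlap with any list, so the 2 marks need not overlap at the same glucose level. Of these 12, cluster 5 had 6, cluster 3 had 3, cluster 1 had 2, cluster 4 had 1, and clusters 2 and 6 had 0. At the place in cluster 4 the high-glucose regions of the 2 marks did not overlap each other.

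The 5 strongest of these shared places, by summed −log10 p, each had 5mC and 5hmC at modest fragment numbers. At chr11:58940023-58941210, the leading 5mC place of cluster 3, 5mC had 38 fragments in high and 36 in normal glucose, and 5hmC 18 and 13. At chr1:248098840-248100196 in cluster 5, which holds the widest high-glucose 5mC member at 1357 bp, 5mC had 34 and 39 fragments and 5hmC 30 and 34. At chr1:247693700-247694599 5mC had 33 and 36 and 5hmC 16 and 17. In these 3 places the counting intervals of the fragment numbers at high and normal glucose overlapped for either mark.

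The remaining pair was richer in 5hmC. At chr1:248854805-248855968, which ends the long empty stretch of cluster 5, 5hmC had 50 fragments (37.1 to 65.9) in high and 41 (29.4 to 55.6) in normal glucose, and 5mC 19 and 18. At chr11:5950640-5951263, the leading 5mC place of cluster 1, 5hmC had 34 fragments in each list and 5mC 19 and 20.

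The 3 strongest high-glucose 5hmC regions without a partner were chr11:4406180-4406611 with 31 fragments (21.1 to 44.0), chr1:247602106-247602535 with 35 and chr1:247604232-247604593 with 34. The last 2 lie next to each other just inside the left edge of cluster 5, and the nearest normal-glucose 5hmC region was 7197 and 7167 bp away. Cluster edges are fixed positions and gene positions on hg19 were not used here. Regions close to an edge may therefore lie in neighbouring genes and not among the receptor genes. In normal glucose the 3 strongest were chr1:247780805-247781154 with 30 fragments, chr11:124413029-124413379 with 30 and chr11:5753274-5753632 with 22.

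For 5mC the unpartnered regions had fewer fragments. In high glucose they were led by chr1:248033471-248033859 with 13 fragments (6.92 to 22.2), chr11:5315613-5316205 with 11 and chr1:248207729-248208075 with 9. In normal glucose they were led by chr11:124098780-124099164 with 16 (9.15 to 26.0), chr11:4621452-4621977 with 10 and chr11:124029332-124029664 with 11. The first of the high-glucose regions lies in the 5mC-rich window of cluster 5, where a normal-glucose 5mC region began 1280 bp away. Cluster 4 had 7 of the 13 normal-glucose 5mC regions without a partner, and cluster 5 had 5 of the 13 high-glucose ones. A missing partner means that no region of the other list overlapped, and the other library's fragments there are not known from the lists. Receptor genes and their pseudogenes include near-identical copies, and how reads that fit several copies were placed is not given in the sources used here.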

How the data were processed

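Groups were taken from the sample titles, with 1 library per mark and glucose level. The names of single peaks read Ctrl in the lists titled high glucose and Low in those titled normal glucose, and the titles were followed. Per the submitters' processing notes, CASAVA 1.8.2, Bowtie 1.0.0, SAMtools 0.1.18 and bedtools 2.17.0 were used on hg19, with roles not given. The sources used here name no peak caller and do not say how duplicate reads or the control were handled. The authors deposited 1 narrow peak list per library, giving per peak a display score, a fold enrichment (a ratio of observed to expected fragments) and the −log10 of its p-value and of its q-value. The score the authors deposited was not used. The lists reach q-values of 0.0498, 0.0496, 0.0496 and 0.0488.

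Regions on chromosomes 1 to 22 and X were kept, and 80, 82, 14 and 15 on other sequences were left out. Regions were assigned by midpoint. They were called shared at an overlap of at least 1 bp, counted with NumPy 2.4.6 and pandas 2.3.3, and bedtools 2.31.1 gave the same counts. Intervals are exact Poisson, Clopper-Pearson or conditional binomial (SciPy 1.17.1), at 95%. Fragment counts t and expected counts L were solved from fold = (t + 1)/(L + 1) and the Poisson p, which worked for 191314 of 191314, 209999 of 209999, 100218 of 100220 and 91869 of 91870 regions, and was tested on simulated data. Depth assumes a genome of 2700 Mb and the shortest peaks, 292, 259, 324 and 325 bp, as fragment length. In the totals, flanks that overlap were counted once, 10.5 Mb in all, and flanks stop at the outermost listed position of a chromosome. Values by cluster and by distance from the edge count the 850 kb shared by the flanks of clusters 2 and 3 for each of them.

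Regions named are, by rule, the strongest of each cluster and list, the 5 strongest and 3 strongest without a partner of each list, the 5 strongest places of both marks at both glucose levels, and the widest of each list. The members, lists and runs of genes were chosen with earlier results of these data known. Runs of genes follow RefSeq order on GRCh38.p14, and no position was converted between builds. The alternatives are a stricter −log10 p or q, any overlap as membership, equal numbers of top peaks, matched background, covered length, merging, wider flanks, leaving out empty windows, and other definitions of overlap.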

Additional observations from a re-analysis of the deposited data

How the results depend on the processing

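Of 60 alternative values, 52 stayed inside the 95% interval of the value reported and the density ratios of clusters over flanks stayed below 1 under all of theirs. Some of the 52 are weak checks. Any overlap as membership and matched background at the list threshold left the glucose ratios unchanged, at 1.03 for 5hmC and 1.0 for 5mC. The 5mC interval, from 0.673 to 1.49, is wide. The 5hmC ratio of high over normal glucose was 1.27 among regions whose −log10 p reached 10, and 1.101 with the background matched as well, an alternative chosen after the data were seen. The 5mC ratio under that added alternative was 0.750. By covered length the density ratio of clusters over flanks was 0.271 for high-glucose and 0.205 for normal-glucose 5hmC, since member regions were narrower. The share of high-glucose 5hmC regions with a partner was 51.0% with the −log10 p threshold of 10, where both lists were cut before comparison, and that of normal-glucose 5hmC was 59.0% when 50% of both regions had to overlap. High-glucose 5mC regions carried 5hmC in 13.6% of cases with that threshold, and 5mC regions did so in 13.0% in high and 14.8% in normal glucose at an overlap of 50% of both regions. The stricter definitions themselves remove partners. No paired analysis was possible because each group has 1 library, and no replicate could be left out for the same reason. The 54 regions of each 5mC list, between 1 and 20 per cluster in high glucose and between 0 and 17 in normal glucose, limit what could be detected for 5mC, and the input libraries were not analysed here.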
